A study of Mus musculus with 8 samples.

Results

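The nuclear-encoded subunits of the respiratory chain were followed through 8 libraries of ribosome-bound RNA from embryonic mouse neurons. Members were taken by symbol among protein-coding genes: every gene whose name begins with Nduf, Uqcr, Cox4i, Cox5, Cox6, Cox7 or Cox8, with Sdha, Sdhb, Sdhc, Sdhd and Cycs. The rule found 77 genes of 38924 in the count tables, of which 21226 are protein-coding, and 7 processed pseudogenes with such names were left out. The 77 genes are 38 of complex I, 8 assembly factors of complex I, 4 of complex II, 8 of complex III, cytochrome c and 18 of complex IV, and they lie on 19 chromosomes.

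The study purified RNA from tagged ribosomes (bacTRAP, in which a transgene driven by a cell type's own gene tags the ribosomes of that cell type). The dopamine libraries came from midbrain and were 2 named datL, 2 named datM, 1 named Lateral and 1 named Medial, and the 2 serotonin libraries came from hindbrain. The labels do not spell out L and M. By the series' design text, 1 bacTRAP line used the dopamine transporter gene Slc6a3 and another the serotonin transporter gene Slc6a4, whereas the description of every library, serotonin included, names the Slc6a3 line JD1640. No other allele or treatment is named. The labels give 1 text on age for all 8 libraries: embryos were taken on embryonic day 15, and midbrain called day 18 was taken on day 15 and held 3 days in culture. Per the file headers, Lateral and Medial also carry an E18 mark and shared lane 8 of a run with the serotonin libraries, while the path of datL and datM names an October run. Nothing says that replicates were separate animals, so the p-values measure a spread between libraries that may be technical. Comparisons that pool datL, datM, Lateral or Medial in 1 arm treat unlike groups as replicates. Their spread therefore also includes differences between these groups.

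Total counts per library were 22417739 to 33216710. Slc6a3 stood at 31.9 to 740 CPM (a gene's count scaled to the library's total count) in the dopamine libraries and at 0.171 and 0.679 CPM in the serotonin libraries. Slc6a4 stood at 0 to 5.27 CPM in dopamine and at 1075 and 1196 CPM in serotonin. The summed markers of astrocytes and radial glia, dividing progenitors, oligodendrocytes and red blood cells were higher in every dopamine library than in either serotonin library. The 11 astrocyte and radial glia genes summed to 2102 to 4959 CPM in the 6 dopamine libraries and to 962 and 1315 CPM in serotonin, and the 10 progenitor genes to 224 to 927 CPM in dopamine and to 127 and 131 CPM in serotonin. None of these 21 genes was at 0 throughout either group. The 8 oligodendrocyte genes summed to 38.8 to 284 CPM in dopamine and 21.1 and 38.5 CPM in serotonin. The 8 red blood cell genes summed to 102 to 764 CPM in dopamine and 31.5 and 53.7 CPM in serotonin, where Alas2 was at 0. The 11 vascular genes summed to 13.9 to 300 CPM in dopamine and 14.3 and 20.4 CPM in serotonin, where Tek and Anpep were at 0. The part of other cells in the results below was not tested. In these bulk libraries, fewer cells of a type and less RNA per cell cannot be told apart.

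The respiratory chain passes electrons from NADH (complex I) and succinate (complex II) to ubiquinone, then through complex III and cytochrome c to oxygen at complex IV, and pumps protons that drive ATP synthesis. Complexes I, III and IV join subunits made in the cytosol with a core encoded by mitochondrial DNA, whereas complex II is encoded wholly in the nucleus. Dopamine neurons are known for a high energy demand and for sensitivity to complex I inhibitors. Messages of mitochondrial DNA are translated inside the organelle and not on the tagged ribosomes. Its 13 coding genes were listed at 0 in every library, and the cause was not tested. Only the nuclear side of each complex is therefore described.

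As a group, the 77 genes took 0.907% to 2.76% of all counts. Their summed level was 27593 and 10067 CPM in datL, 14045 and 9067 CPM in datM, 14054 CPM in Lateral, 16065 CPM in Medial, and 23374 and 21794 CPM in serotonin. The 2 serotonin libraries lay close together, and 5 of the 6 dopamine libraries lay below both. The first datL library lay above both and was 2.74 times the second datL library, so the dopamine range enclosed the serotonin values. The mean was 15148 ± 6647 CPM in dopamine (SD, n = 6) and 22584 ± 1117 CPM in serotonin (SD, n = 2), a ratio of 0.671. Without the first datL library the ratio was 0.56.

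The ratio was not the same for every complex, though none of these differences was tested. Complex I summed to 7394 ± 3393 CPM in dopamine and 11743 ± 481 CPM in serotonin (ratio 0.63), and complex IV to 0.596 of its serotonin level. Within complex I, the 7 core subunits, which carry the flavin, the iron-sulfur clusters and the quinone site, had a ratio of 0.745, and the 31 supernumerary subunits, which surround them, 0.604. Complex III had a ratio of 0.843 and the assembly factors of complex I 0.872. Complex II had the narrowest range of the multi-gene complexes, 1152 to 1574 CPM in dopamine against 1621 and 1622 CPM in serotonin, and its highest library was 1.41 times its lowest, compared with 3.15 times for complex I.

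**Figure D1:**
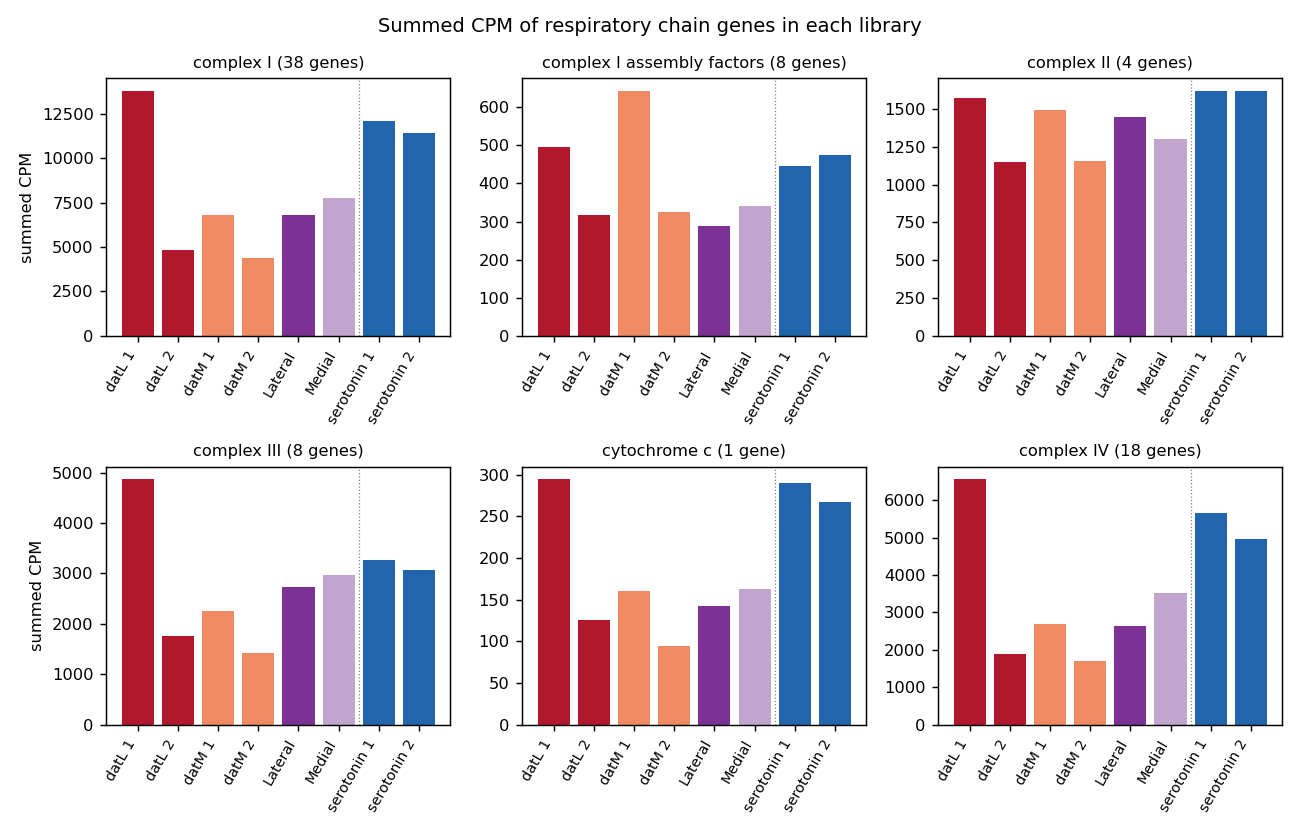
Summed CPM (vertical axes, each with its own scale from 0) of the members of each complex in each of the 8 libraries, with dopamine left and serotonin right of the dotted line. Bars are single libraries without error bars. The first datL library reaches 13801 CPM for complex I, above both serotonin libraries, and the other 5 dopamine libraries lie between 4381 and 7761 CPM.

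Levels between genes were compared as CPM per kilobase of exon, averaged over the 8 libraries, with the length taken over all annotated exons of a gene merged. On that length the highest were Cox6b1, a small subunit of complex IV on the side of the intermembrane space, at 1223 CPM per kb, and Ndufa4, at 1110 CPM per kb. Ndufa4 is named for complex I and is now counted with complex IV, and it stays under its symbol here. The highest of complex III was Uqcr10 at 522 CPM per kb, of complex II the iron-sulfur subunit Sdhb at 278 CPM per kb, and of the assembly factors Ndufaf2 at 113 CPM per kb. Cycs, which shuttles electrons between complexes III and IV, stood at 56.4 CPM per kb. The order depends on the length used. Per kilobase of the longest coding transcript, Ndufa4 stood at 1208 CPM per kb and Cox4i1 at 1145, both above Cox6b1 at 999, and in complex III Uqcrh at 912 lay above Uqcr10 at 702. Sdhb and Ndufaf2 were the highest of their groups on both lengths.

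Of the 77 genes, 69 averaged at least 5 CPM. Cox8b and Cox8c had no counts in any library, and 3 counts would be 0.0903 to 0.134 CPM. Some low values concern genes that other tissues use widely. Ndufab1, the mitochondrial acyl carrier protein, averaged 1.39 CPM, Ndufb2 8.02 CPM and Cox5a, a matrix-side subunit of complex IV, 16.6 CPM. Cox5a shares 38.7% of its exonic bases with the overlapping gene Gm26631, and reads that fall on more than 1 gene were not counted. Among 100-base windows of the members' transcripts, 9.50% of those of Ndufab1, 44.4% of Cox7c and 38.3% of Ndufa12 also occur in other annotated genes. The same holds for 24.7% of the windows of Cycs, 24.0% of Ndufa13 and 22.7% of Uqcrc2. In all, 24 members have such windows, so that their levels are uncertain.

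The libraries differed more than the groups. Among the 69 genes, the first datL library held the highest value for 40 (58.0%, against 15.3% of all 10431 genes at this level), and the second datM library the lowest for 36 (52.2%, against 17.7%). The second datL library was lowest for a further 17 and highest for none. Ribosomal protein genes had the first datL library highest for 74 of 81, and their summed level was 79231 CPM there and 26332 to 48604 CPM in the other 7 libraries. Whether members and ribosomal protein genes moved for a common reason was not tested.

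**Figure D2:**
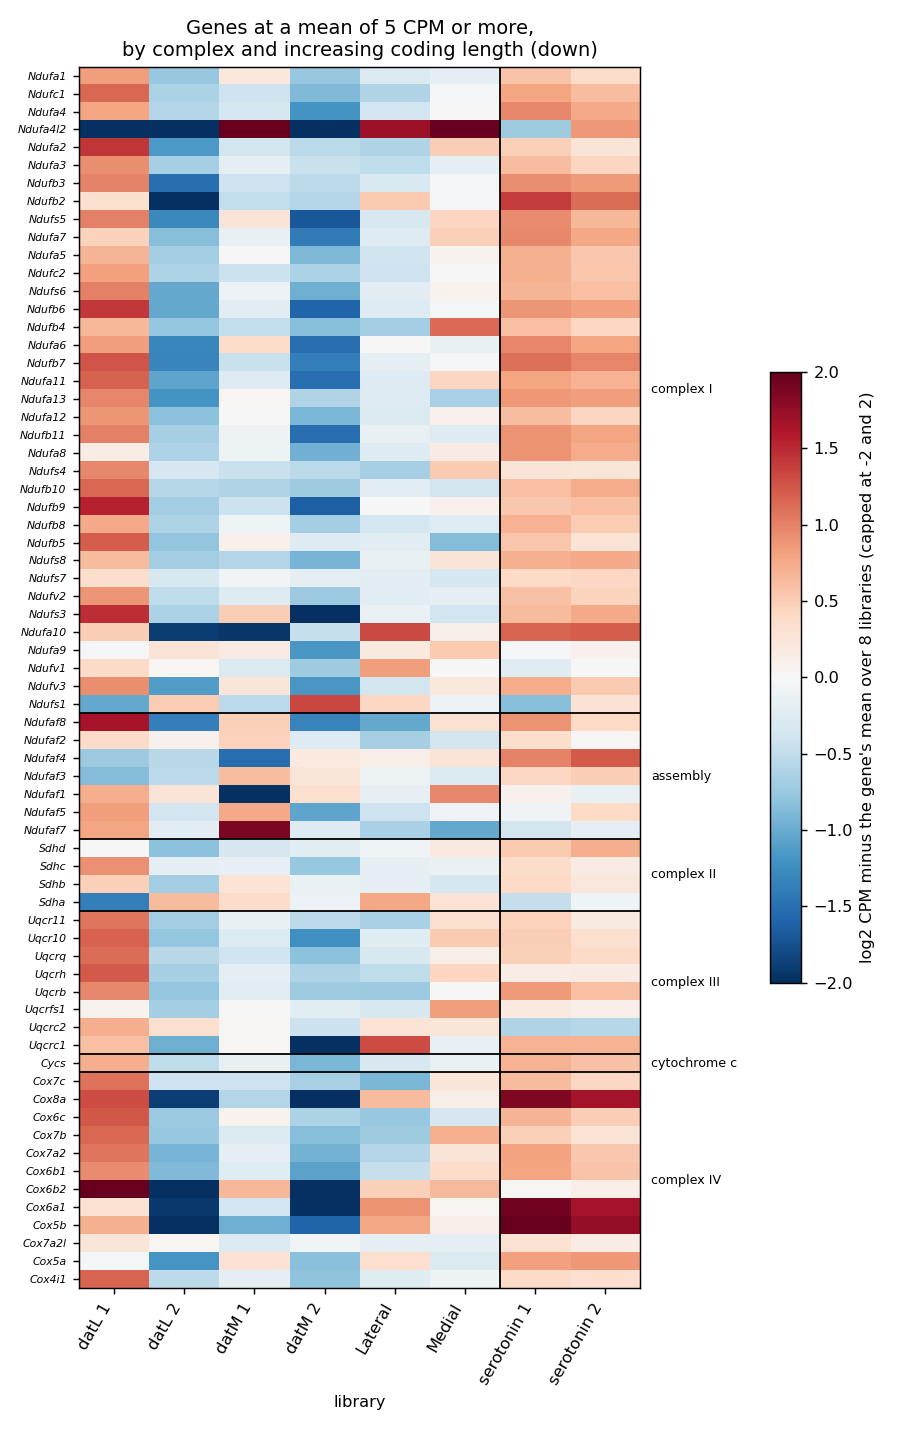
Deviation of genes at a mean of 5 CPM or more (rows, by complex and then by increasing coding length) from their own means over the 8 libraries (columns, dopamine left of the line), in log2 CPM with the colour scale capped at -2 and 2. The column of the first datL library is red for most rows and those of the second datL and second datM libraries blue. Rows of some long genes, such as Sdha and Ndufs1, go another way.

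The first question was whether the chain's genes differ between dopamine and serotonin neurons. Across all 6 dopamine and 2 serotonin libraries, no gene passed the threshold of an adjusted p of 0.05 in edgeR's quasi-likelihood test (0% of 13806 genes and 0 of 75 members tested). DESeq2 called 133 genes (0.963%) and voom 14 (0.101%), none of them a member. At an unadjusted p under 0.05, edgeR gave 4 members, 1 higher and 3 lower in dopamine, against 2.80% and 1.90% of all genes. Log2 fold changes were negative for 60 of the 75 members, with a median of -0.41 beside 0.26 over all genes, and positive for 15 (20%, against 58.9%). In voom the 2 medians were closer, at -0.73 for members and -0.64 over all genes, and 15 members had an unadjusted p under 0.05 (20%, against 8.50%). All 6 dopamine libraries lay below both serotonin libraries for 12 members (16%, against 8.59% of all genes) and above them for 1 (1.33%, against 3.06%).

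The 3 members with lower values at that unadjusted p were Cox6a1, Cox5b and Ndufa8. Cox6a1, the common form of a regulatory subunit of complex IV (chromosome 5, 115345642 to 115348981, mm10), stood at 229 and 48.1 CPM in datL, 143 and 31.4 CPM in datM, 347 CPM in Lateral and 191 CPM in Medial, against 713 and 594 CPM in serotonin. Cox5b, the zinc-binding subunit of complex IV (chromosome 1, 36691487 to 36693385), stood at 155 and 12.7 CPM in datL, 47.6 and 30.5 CPM in datM, 161 CPM in Lateral and 102 CPM in Medial, against 379 and 321 CPM in serotonin. Both genes were lower in each dopamine library than in either serotonin library. The log2 fold change was -1.87 ± 0.67 for Cox6a1 and -1.93 ± 0.73 for Cox5b (SE), with edgeR adjusted p-values of 0.811 and 0.896. Ndufa8, a supernumerary subunit of complex I on the side facing the intermembrane space, stood at 148 to 324 CPM in the dopamine libraries and at 484 and 542 CPM in serotonin, a log2 fold change of -0.92 ± 0.38.

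Uqcrc2, a core protein of complex III related to the mitochondrial processing peptidases (ENSMUSG00000030884.5, chromosome 7, 120635176 to 120659478), was the 1 member above serotonin in every dopamine library. It stood at 681 and 514 CPM in datL, 418 and 305 CPM in datM, 498 CPM in Lateral and 486 CPM in Medial, against 271 and 276 CPM in serotonin. Its log2 fold change was 0.96 ± 0.42 with an unadjusted p of 0.0397, and the edgeR adjusted p was 1.00. It shares 7.30% of its exonic bases with Pdzd9. Its partner Uqcrc1 did not follow it. Uqcrc1 stood at 636 and 213 CPM in datL, 422 and 89.6 CPM in datM, 1037 CPM in Lateral and 379 CPM in Medial, against 680 and 675 CPM in serotonin, so that the groups overlapped.

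Without the first datL library, the members' median was -0.86 beside 0.18 over all genes, and 33 members had an unadjusted p under 0.05 (44.6%, against 7.66% of all genes). Without the second datL library 2 had (2.67%, against 4.20%). Without the first serotonin library 0 had, against 2.31% of all genes, and without the second 1 had (1.33%, against 2.93%). No member was called in any of these fits.

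Within lane 8, Lateral and Medial were set against serotonin, so that the run was shared. Only Lateral and Medial carry the E18 mark, and here it cannot be told apart from neuron type. edgeR called 3 of 13400 genes (0.0224%) and none of 74 members, whose smallest adjusted p was 0.273. At an unadjusted p under 0.05, 32 members were lower (43.2%, against 6.46% of all genes) and 1 was higher (1.35%, against 7.34%). Both dopamine libraries lay below both serotonin libraries for 50 members (67.6%, against 24.6%) and above them for 6 (8.11%, against 25.0%). The members' median log2 fold change was -0.77 beside 0.03 over all genes, and it was positive for 14 (18.9%, against 50.9%). DESeq2 called 787 genes (5.87% of all genes), of which 305 were lower (2.28% of all genes). Its 12 members (16.2%) were all lower: Ndufa4, Ndufa6, Ndufa13, Ndufb7, Ndufb8, Ndufb10, Ndufb11, Uqcrb, Cox5b, Cox6a1, Cox6c and Cox8a. Voom called none, and 0.00746% of all genes. The counts rested on few libraries. Without Lateral, which leaves 1 dopamine library, the members' median was -0.70 beside -0.25 over all genes, and 60 of 74 were negative. Without Medial, 53 members had an unadjusted p under 0.05 (70.7%, against 18.9%). Without the first serotonin library 3 had (4.05%, against 3.60%), and without the second 7 had (9.33%, against 4.87%).

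Complex I held 24 of the 32 members lower at an unadjusted edgeR p under 0.05, and also 38 of the 74 members tested. Of its 38 genes, which include Ndufa4, 34 had a negative log2 fold change, with a median of -0.81. The 24 were 4 of the 7 core and 20 of the 31 supernumerary subunits, against 6.46% of all genes lower at that p. Ndufb7, a supernumerary subunit of the membrane arm (chromosome 8, 83566671 to 83571626), had the smallest p. It stood at 220 CPM in Lateral and 246 CPM in Medial, against 539 and 495 CPM in serotonin (log2 fold change -1.24 ± 0.26, edgeR adjusted p 0.273). Ndufa13, also known as Grim19, stood at 178 CPM in Lateral and 136 CPM in Medial, against 390 and 382 CPM in serotonin. Ndufb11, an X-linked membrane-arm subunit, stood at 217 CPM in Lateral and 202 CPM in Medial, against 449 and 417 CPM in serotonin. In all 3 genes the Lateral and Medial values lay well below the serotonin values. The second datL and both datM libraries lay below serotonin too. The first datL library lay above it, at 600 CPM for Ndufb7, 421 CPM for Ndufa13 and 487 CPM for Ndufb11. Ndufa13 shares 30.2% of its exonic bases with Tssk6.

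Not every larger subunit of complex I shared that position. Ndufv3, with a coding sequence of 1404 nt, did share it. Its log2 deviations from its own mean were -0.36 in Lateral and 0.21 in Medial, against 0.74 and 0.52 in serotonin. Ndufv1, the flavin-carrying subunit that oxidises NADH, stood at 437 CPM in Lateral and 247 CPM in Medial, against 207 and 243 CPM in serotonin (log2 fold change 0.54 ± 0.38). Ndufs1, the longest of the chain's genes by coding sequence and a carrier of iron-sulfur clusters, stood at 191 CPM in Lateral and 132 CPM in Medial, against 78.9 and 175 CPM in serotonin (log2 fold change 0.28 ± 0.46), so its groups overlapped. Among the other dopamine libraries it ran against most members, at 69.8 and 204 CPM in datL and 98.7 and 365 CPM in datM, with the first datL library the lowest and the second datM library the highest of the 8. Ndufa9, a supernumerary subunit near the quinone site, stood at 268 CPM in Lateral and 337 CPM in Medial, against 232 and 249 CPM in serotonin (log2 fold change 0.24 ± 0.27). None of Ndufv1, Ndufs1 and Ndufa9 had an unadjusted p under 0.05.

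The assembly factors, which build complex I and are not part of it, had a median of -0.69. Ndufaf4 was lower at an unadjusted p of 0.0218, at 51.2 CPM in Lateral and 55.9 CPM in Medial against 94.5 and 110.5 CPM in serotonin. In datL and datM it lay lower still or alike, at 27.9 and 31.7 CPM in datL and 15.7 and 53.5 CPM in datM, so that every dopamine library was below serotonin (log2 fold change over all libraries -1.28 ± 0.64, unadjusted p 0.0692).

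In complex IV, 11 of 15 tested genes had a negative log2 fold change, with a median of -0.77. At an unadjusted edgeR p under 0.05, 5 were lower, against 6.46% of all genes. Both dopamine libraries lay below both serotonin libraries for 10 of the 15, compared with 29 of 38 in complex I and 24.6% of all genes. Cox8a, the common form of a small membrane subunit, stood at 120 CPM in Lateral and 83.6 CPM in Medial, against 282 and 246 CPM in serotonin (log2 fold change -1.45 ± 0.34, edgeR adjusted p 0.276). Cox6c stood at 217 CPM in Lateral and 291 CPM in Medial, against 591 and 518 CPM in serotonin (log2 fold change -1.22 ± 0.28). Cox4i1, the common form of the largest nuclear-encoded subunit, stood at 660 CPM in Lateral and 727 CPM in Medial, against 1023 and 987 CPM in serotonin (log2 fold change -0.62 ± 0.27, unadjusted p 0.0613). Cox7a2, the common form of subunit 7a, stood at 256 CPM in Lateral and 462 CPM in Medial, against 677 and 561 CPM in serotonin (log2 fold change -0.89 ± 0.35, unadjusted p 0.0438). Ndufa4, which sits with complex IV, stood at 370.2 CPM in Lateral and 485 CPM in Medial, against 947 and 816 CPM in serotonin (log2 fold change -1.13 ± 0.29). Cycs stood at 142 CPM in Lateral and 163 CPM in Medial, against 290 and 267 CPM in serotonin (log2 fold change -0.96 ± 0.27).

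Complex III was mixed, with 5 of 8 genes lower and a median of -0.28. Uqcrc2 had a log2 fold change of 0.77 ± 0.26, and Uqcrfs1, the Rieske iron-sulfur protein, stood at 71.0 CPM in Lateral and 160 CPM in Medial, against 102 and 98.4 CPM in serotonin. Complex II was also mixed. Its flavoprotein Sdha, the catalytic subunit that oxidises succinate, stood at 512 CPM in Lateral and 362 CPM in Medial, above the 217 and 284 CPM in serotonin (log2 fold change 0.73 ± 0.33, unadjusted p 0.0696). Its partner Sdhb stood at 524 CPM in Lateral and 476 CPM in Medial, below the 790 and 704 CPM in serotonin (log2 fold change -0.66 ± 0.28, unadjusted p 0.0572). Sdhd, a membrane anchor of complex II, stood at 246 and 140 CPM in datL, 197 and 215 CPM in datM, 235 CPM in Lateral and 285 CPM in Medial, below the 358 and 410.5 CPM in serotonin in every library (log2 fold change over all libraries -0.69 ± 0.36, unadjusted p 0.0813). Sdha and Sdhb therefore lay on opposite sides of serotonin in lane 8, and neither passed the threshold.

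The direction went loosely with the length of the coding sequence, with a Spearman correlation of 0.31 over 74 members. The 10 members at 5 CPM or more with a positive log2 fold change had a median coding length of 1245 nt, and the 59 with a negative one 393 nt. Members of at least 900 nt had a median of 0.24 (8 of 13 higher), close to 0.26 over other genes of that length. Members under 450 nt had a median of -0.86, and other genes of that length -0.83. Between these lengths the medians were -0.77 for members and -0.45 for other genes. Below 900 nt positive values were rarer in members than in other genes. They made up 10.0% against 20.1% under 450 nt, and 9.52% against 32.5% from 450 nt up. Across all 6 dopamine libraries against serotonin, the same 3 classes from short to long had medians of -0.56, -0.37 and 0.38 in members and -0.36, -0.18 and 0.46 in other genes.

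**Figure D3:**
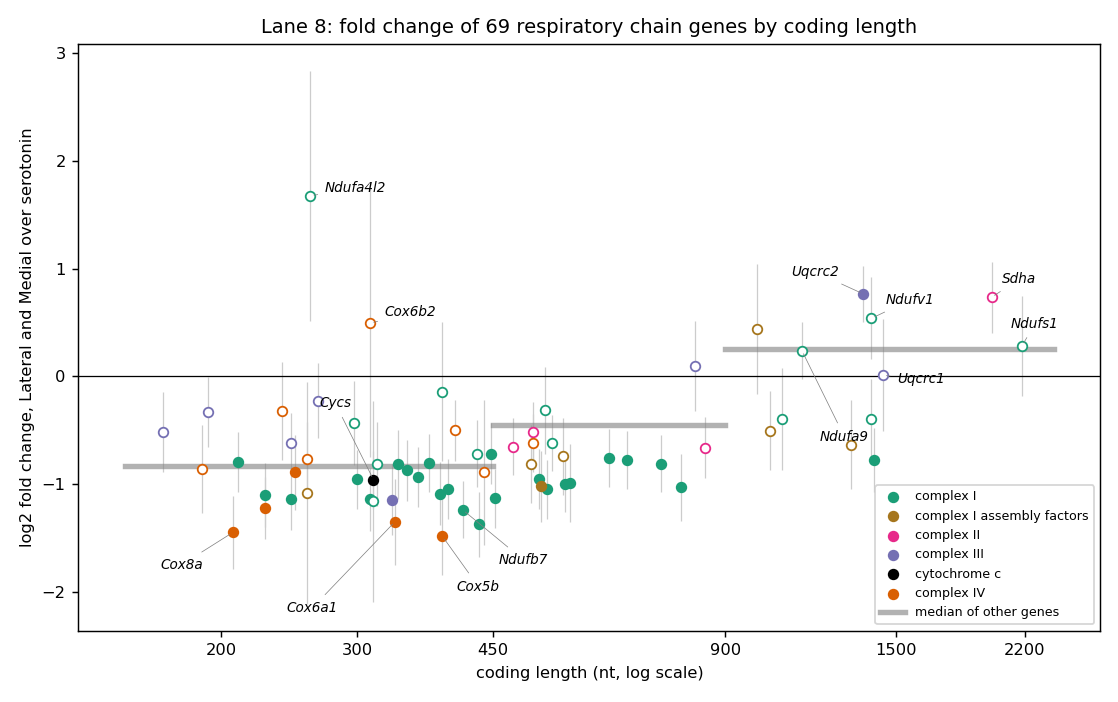
Log2 fold change of Lateral and Medial over serotonin (vertical axis) against coding length in nt (horizontal axis, log scale) for 69 genes, coloured by complex. Points are genes, vertical lines their SE, filled points have an unadjusted edgeR p under 0.05, and grey bars are the medians of other genes in 3 length classes (-0.83, -0.45 and 0.26). Filled points below 0 are genes under 900 nt with 1 exception in complex I, and Uqcrc2 is the filled point above 0.

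Each library had its own pattern by length. In the first datL library, the median log2 deviation from a gene's mean was 0.98 for members under 450 nt and 0.65 for other genes of that length. For genes of at least 900 nt it was 0.55 for members and -0.58 for other genes. In the second datM library the members' medians were -0.90 under 450 nt and -0.44 at 900 nt or more, against -0.41 and 0.17 for other genes. The members' deviations in these libraries thus exceeded those of other genes in the shortest class and differed from them in sign in the longest.

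**Figure D4:**
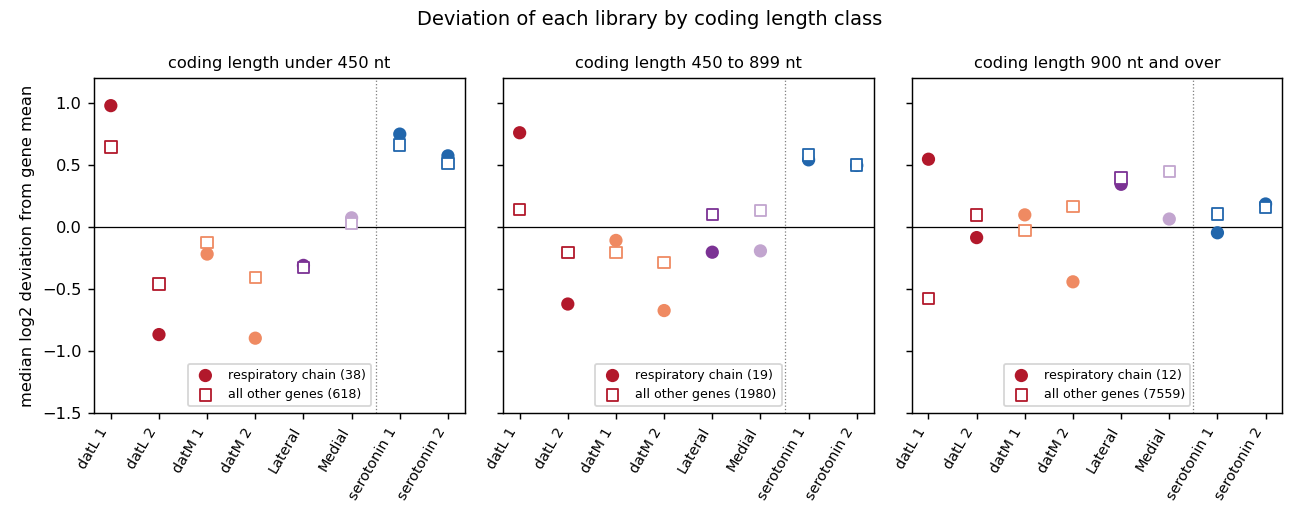
Median log2 deviation from the gene's mean (vertical axis) in each library (horizontal axis, dopamine left of the dotted line) for 3 classes of coding length. Filled circles are members and open squares all other genes at 5 CPM or more, with the number of genes in the legends. Under 450 nt the first datL and both serotonin libraries lie above 0 for both sets, and the second datL and second datM libraries below 0.

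Genes of neighbouring pathways were set beside the chain in lane 8. Of 17 ATP synthase genes tested, 15 had a negative log2 fold change and 6 an unadjusted p under 0.05. Atpif1, an inhibitor of the synthase, had -1.44 ± 0.30. Of 81 ribosomal protein genes, 77 were negative, with a median of -0.65. Glycolysis genes went the other way, with 16 of 19 positive, 7 of them at an unadjusted p under 0.05, and Pfkp, a phosphofructokinase, at 2.45 ± 0.40. The TCA cycle had 11 of 16 positive, with a median of 0.27. Over all genes 50.9% were positive. At an unadjusted edgeR p under 0.05, 7.34% of all genes were higher and 6.46% lower. Genes outside the chain had a median of -0.83 under 450 nt and 0.26 at 900 nt or more. The part of coding length in these 4 lists was not tested. No gene of these 4 lists had an adjusted p under 0.05. The 11 astrocyte and radial glia genes summed to 2343 CPM in Lateral and 4322 CPM in Medial, against 962 and 1315 CPM in serotonin.

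The second question was whether datL and datM differ. In edgeR no gene was called (0% of 15177 genes and 0 of 75 members), and 2 members had an unadjusted p under 0.05, 1 in each direction, against 3.40% of genes higher and 3.52% lower. DESeq2 called 2 members, Ndufa4l2 and Cox4i2 (2.67%, against 10.8% of all genes), and voom none (against 1.60%). The members' median was 0.87 beside 0 over all genes, with 64 of 75 positive (85.3%, against 45.4%). The first datL library decided this direction. Without it the members' median was -0.24 beside 0 over all genes. Without the second datL library it was 1.4 beside -0.09, with 34 members at an unadjusted p under 0.05 (45.3%, against 16.4%). Ndufb9, a membrane-arm subunit of complex I, stood at 634 and 133 CPM in datL, against 159 and 68.7 CPM in datM. Ndufb10 stood at 703 and 214 CPM in datL, against 209 and 194 CPM in datM. In both genes the second datL library lay at or near the datM values. Some summed markers of other cells also separated datL from datM, and others overlapped. The 10 GABA neuron genes summed to 819 and 716 CPM in datL, against 134 and 212 CPM in datM, and 9 had a positive log2 fold change, 5 of them at an unadjusted p under 0.05. The 10 progenitor genes summed to 268 and 308 CPM in datL, against 757 and 927 CPM in datM. The 11 vascular genes summed to 13.9 and 62.6 CPM in datL, against 112 and 160 CPM in datM. The 11 astrocyte and radial glia genes overlapped, at 3781 and 2102 CPM in datL and 4959 and 2856 CPM in datM. Of these 11, 7 had a negative log2 fold change, 4 of them at that p. Over all genes 3.40% were higher and 3.52% lower at that p. No gene of these lists was called in edgeR, and their part in the members' values was not tested.

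Lateral and Medial, with 1 library each, have no replicate check. Of the 69 genes, 22 were higher in Lateral and 47 in Medial, with a median ratio of Lateral to Medial of 0.824. Over 10149 genes of this level the median ratio was 0.925, and 45.9% were higher in Lateral. Uqcrc1 was 2.74 times as high in Lateral, and Uqcrfs1 0.444 times as high.

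Lateral and Medial were also set against datL and datM, where the run and the E18 mark cannot be told apart from the names. edgeR called no gene (0% of 12818 and 0 of 74 members), DESeq2 40 genes (0.312%) with no member, and voom none. The 1 member at an unadjusted p under 0.05 was Ndufaf7, a methyltransferase that acts in complex I assembly. It stood at 49.4 CPM in Lateral and 37.9 CPM in Medial, against 135 and 67.4 CPM in datL and 291 and 65.3 CPM in datM (log2 fold change -1.84 ± 0.83, edgeR adjusted p 1.00). Of all genes, 0.663% were lower and 3.81% higher at that p. Both lane 8 libraries lay below all 4 October libraries for Ndufaf7 and Ndufaf2 (2.70% of members, against 2.77% of all genes). The log2 fold change was positive for 24 members (32.4%, against 46.2%). The members' median was -0.28 beside -0.11 over all genes, and 0.34 beside -0.05 without the first datL library.

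Several subunits of the chain have tissue-restricted versions encoded by genes of their own, and these were low. Cox4i2, an oxygen-responsive form made mainly in lung, had 454 and 1 counts in datL, 0 in both datM libraries, 80 in Lateral and 230 in Medial, against 16 and 74 in serotonin. Per kilobase it made up 2.20% of the Cox4 pair in the first datL library, 2.70% in Medial and at most 0.712% elsewhere. Cox6a2, the heart and muscle form, had 80 counts in the second datL library, 36 in Lateral and 133 in Medial, 0 in the other 3 dopamine libraries, and 2 and 38 in serotonin. It made up 6.33% of its pair in the second datL library, where its share of the counts was 5.96% (95% Wilson interval 4.82% to 7.36%), and 3.20% in Medial. Intervals cover counting error only.

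Ndufa4l2, a relative of Ndufa4 known for induction in low oxygen and for expression in pericytes, had 0 and 1 counts in datL, 701 and 3 in datM, 465 in Lateral and 383 in Medial, against 53 and 216 in serotonin. Both lane 8 dopamine libraries exceeded both serotonin libraries, and 1 of 2 datM libraries held nearly all counts of that pair. The summed vascular and pericyte markers in the same lane were 106 CPM in Lateral and 300 CPM in Medial, against 14.3 and 20.4 CPM in serotonin, and their part in Ndufa4l2 was not tested. Cox7a1, another muscle form, had 109 counts in the first datM library and 24 or fewer elsewhere. Cox6b2 and Cox7b2, known from testis, reached 1.29% and 0.548% of their pairs, both in the first datL library. A count of 0 for Cox8b allows a share of its set of up to 0.0360% in the first serotonin library and 1.55% in the second datM library, where Cox8a itself was low.

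**Figure D5:**
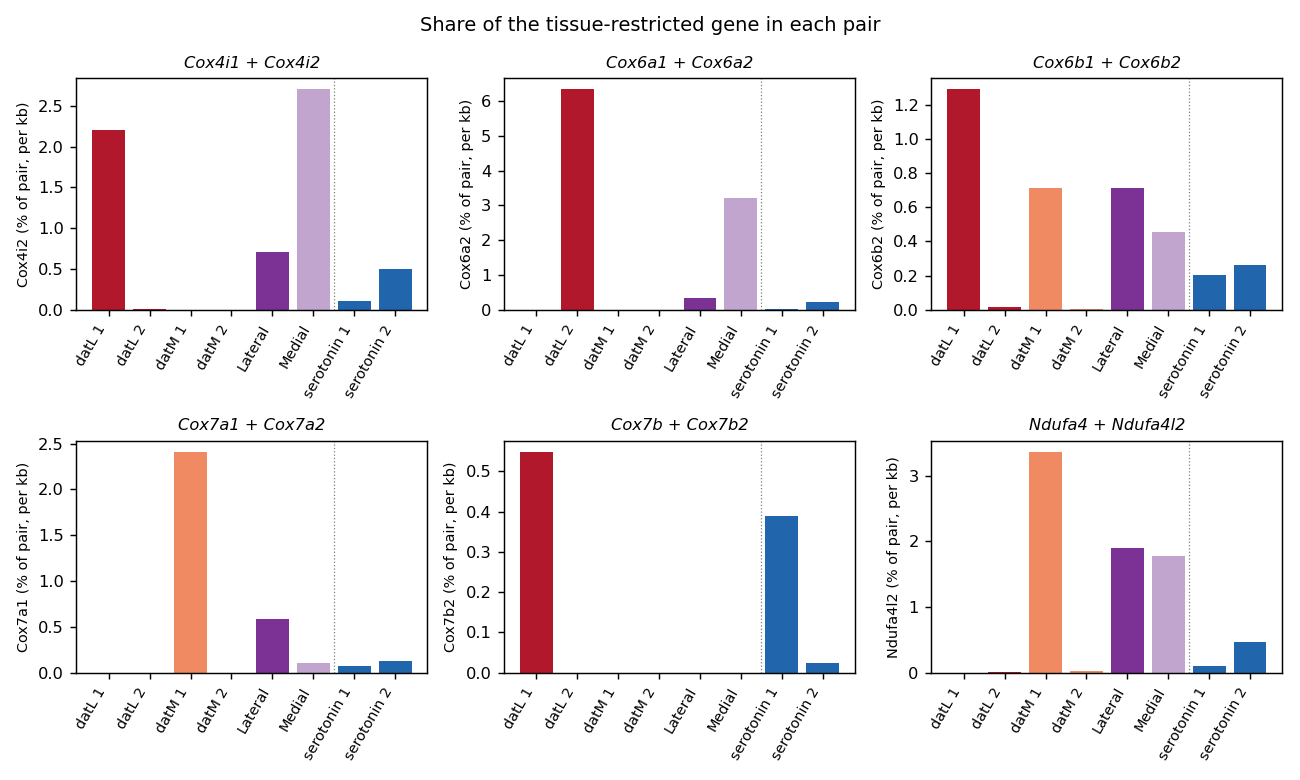
Share of the tissue-restricted gene in its pair (vertical axes, percent of counts per kilobase, from 0) in each library, with dopamine left and serotonin right of the dotted line. Bars are single libraries without error bars. The library with the largest share differs from gene to gene, and the largest of all is Cox6a2 at 6.33% in the second datL library.

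Promoters of chain genes are known to bind NRF1, GABPA and YY1. RefSeq promoters (GRCm38.p6, 250 bases before to 50 after a gene start) were given for 62 members and searched on both strands. The NRF1 core word CGCATGCG, which reads the same on both strands, occurred in 8 members (12.9%), against 2.91% of 16209 protein-coding genes and 4.64% of 8117 other genes at 5 CPM or more. The GABPA word CCGGAAG occurred in 13 members (21.0%), against 13.5% and 21.2%, and the YY1 word AAGATGGC in 8 (12.9%), against 3.68% and 5.90%. A match describes these letters and is not a site of binding.

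Windows of 30 bases around the NRF1 word are shown for 5 of the 8 members. They were chosen because 4 of them (Cox6a1, Ndufa8, Cycs and Ndufaf4) were lower in lane 8 at an unadjusted edgeR p under 0.05 and Uqcrc1 was not. Of all 8 members with the word, 4 were lower at that p, beside 43.2% of the 74 members tested. The windows run 5′ to 3′ on the strand of the gene, with the word in capitals.
Cox6a1, chr5:115349101-115349130, minus strand: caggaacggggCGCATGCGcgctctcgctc
Ndufa8, chr2:36049329-36049358, minus strand: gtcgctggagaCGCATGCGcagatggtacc
Cycs, chr6:50566612-50566641, minus strand: ccatgctagctCGCATGCGcgcgcacaaac
Ndufaf4, chr4:24897960-24897989, plus strand: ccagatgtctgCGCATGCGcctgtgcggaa
Uqcrc1, chr9:108936668-108936697, plus strand: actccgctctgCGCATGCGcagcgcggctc
Relative to the gene start, the word begins at position -161 in Cox6a1, -112 in Ndufaf4, -61 in Cycs, -9 in Ndufa8 and 31 in Uqcrc1. The other 3 members with the word were Ndufa11, Ndufaf5 and Uqcr11, and none of them reached an unadjusted p of 0.05 in lane 8. Members that share the word thus lay both below serotonin, as Cox6a1 and Ndufa8 did in every dopamine library, and across it, as Uqcrc1 did. For Uqcrc1 only Lateral lay above serotonin, and the other dopamine libraries lay below it.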

How the data were processed

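The deposited values are raw read counts per gene, 1 table per library. The submitters' processing notes name STAR and mm10. Per the file headers, featureCounts 1.4.3-p1 assigned reads to GENCODE M2 genes without regard to strand, leaving out multi-mapped reads and reads on overlapping genes. Biotypes and coding lengths (longest coding transcript) came from GENCODE M21, matched by gene identifier. Without strand, reads of overlapping antisense genes cannot be told apart.

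CPM is the count over the library's total. All genes were tested with edgeR 4.0.16 in R 4.3.3 (quasi-likelihood test, TMM factors, default expression filter, two-sided, Benjamini-Hochberg threshold 0.05), and the members' values were read from those fits. Dopamine against serotonin used all 8 libraries, Lateral and Medial against serotonin 4, datL against datM all 8 in 5 groups, and Lateral and Medial against datL and datM 6. Standard errors were worked out from each fold change and its F statistic. Shares carry 95% Wilson intervals, and a count of 0 was given a limit of 3 counts.

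Named genes were, in each comparison, the 6 members of smallest p, fixed members chosen for their role, the restricted isoforms, the member highest per kilobase in each complex and up to 2 genes of other lists. Ndufa9, Ndufa12, Ndufab1, Ndufb2, Uqcrh, the other members with an NRF1 word and those that DESeq2 called were named after their values were seen. The members, lists and promoter words were chosen with earlier results of these data known. Alternatives were RLE factors, DESeq2 1.42.0, voom of limma 3.58.1, other expression filters, a replicate block and leaving out each library, for sums other denominators, and for levels per kilobase another length. Protein sequences were not used here. Values of 2 single genes are not reported here.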

Additional observations from a re-analysis of the deposited data

Results flagged for a closer look

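Among 47 sets of 6 dopamine libraries, 14 had 1 library far from the others by Dixon's test, in which the gap to the nearest library exceeds 0.625 of the range. Chance flags about 1 in 20 independent groups. The sets share libraries, some were chosen for small p-values in these data, and cytochrome c and Cycs are the same values. The share flagged can therefore not be set against that rate. In 12 of the 14 the first datL library was the highest. Its summed levels were 13801 CPM for complex I and 294 CPM for cytochrome c, which is Cycs alone. Of complex I it held Ndufb5 at 547 CPM, Ndufb7 at 600.2 CPM, Ndufb9 at 634 CPM, Ndufb10 at 703 CPM and Ndufb11 at 487 CPM. Of complex IV it held Cox4i1 at 1750 CPM, Cox6c at 876 CPM, Cox6b2 at 30.4 CPM and Cox7b2 at 1.45 CPM. The other 2 were Cox7a1 at 4.0 CPM in the first datM library and the Rieske protein gene Uqcrfs1 at 159.9 CPM in Medial. Ribosomal protein genes summed to 79231 CPM in the first datL library, and their part in these values was not tested.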

How the results depend on the processing

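The comparisons were refitted under each alternative. The counts at an unadjusted p, the differences of medians the omission of libraries from sums and the length of the longest coding transcript were added after seeing the data.

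Replicate numbers did not pair the libraries (correlations of deviations 0.101, 0.0153 and -0.0037). With a replicate block, the members at an unadjusted p under 0.05 were 8 for dopamine versus serotonin, 7 for lane 8 (9.46%, against 4.46% of all genes and 33 members without the block), 1 for datL versus datM and 3 for Lateral and Medial versus datL and datM, where the median of members minus that of all genes was -0.99.

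With voom, 15 members had an unadjusted p under 0.05 for dopamine versus serotonin and 1 for datL versus datM. The median of members minus that of all genes was then -0.089 for dopamine versus serotonin and -0.67 in lane 8, and the members' median for Lateral and Medial versus datL and datM was 0.020. DESeq2 called 12 members in lane 8 and 2 for datL versus datM. A minimum of 5 CPM left 1 member at an unadjusted p under 0.05 for datL versus datM, and no expression filter left 0 for Lateral and Medial versus datL and datM.

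Leaving out each library in turn gave, for dopamine versus serotonin, 0 to 33 members at an unadjusted p under 0.05. In lane 8 it gave 0 to 20 members called, 3 to 53 at an unadjusted p under 0.05, members' medians of -0.89 to -0.70 and medians minus that of all genes of -0.97 to -0.45. For datL versus datM it gave 1 to 34 members at an unadjusted p, medians of -0.24 to 1.4 and differences of -0.24 to 1.49, below 0 without the first datL library. For Lateral and Medial versus datL and datM it gave 0 to 4 members, medians of -0.50 to 0.34 and differences of -0.43 to 0.38, and the difference was 0.12 without Lateral. The cause of these changes was not tested.

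Counts without length gave highest shares of 1.39% for Cox4i2, 2.79% for Cox6b2, 1.18% for Cox7a1, 0.245% for Cox7b2 and 6.35% for Ndufa4l2, since the pairs differ in length. The other 231 comparison-level values stayed within set limits. Counts stayed within 1.5 times, and medians and their differences kept their sign and moved by less than the pooled SD between libraries. Ratios of sums moved by less than that SD on the log2 scale, and isoform shares stayed inside their Wilson interval. Values of single genes were judged by another rule and are not among these. Arms of 1 library were assumed to vary like the others, and 2 libraries a group limit every comparison.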
